A study of Mus musculus with 19 samples.

Results

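The chemokines and chemokine receptors of mouse liver were taken as all probes of a 2-colour array whose gene symbol names a CC, CXC, XC or CX3C ligand or receptor with a number. The symbol rule found 55 probes for 52 genes, of 23568 probes and 18788 gene symbols on the array, and did not use any measured value. There were 23 probes for CC ligands, 4 for CXC ligands with the ELR sequence before the first cysteine, 7 for CXC ligands without it, and 2 for XC or CX3C ligands. Receptors had 11 CC probes, 6 CXC probes and 2 probes for XC or CX3C receptors. Ccl8, Ccl12 and Ccl27a had 2 probes each, and the symbol Cxcr7 stands for the gene now named Ackr3.

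The livers came from 20-week-old B6 mice, either wild type or labelled as knockouts of 5-lipoxygenase (5LO KO), the enzyme that makes leukotrienes from arachidonic acid. They had eaten normal chow or an atherogenic diet rich in fat, cholesterol and cholate, for 16 weeks. There were 5 wild-type and 5 knockout mice fed chow, and 4 wild-type and 5 knockout mice fed the atherogenic diet. RNA of 1 mouse (Cy5) was hybridised on each array with a wild-type pool (Cy3), made of the 5 chow livers or of the 4 livers from atherogenic feeding. Each sample is a single mouse, and the labels do not state which part of the Alox5 gene is deleted.

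Chemokines are small secreted proteins that guide leukocytes along gradients by binding receptors coupled to G proteins. CXC ligands with ELR attract neutrophils through Cxcr2, those induced by interferon attract T cells through Cxcr3, and many CC ligands attract monocytes and macrophages through receptors that include Ccr1 and Ccr2. In liver, Kupffer cells, stellate cells, sinusoidal endothelium and hepatocytes all can make chemokines, and Ccl2 is known for bringing in monocytes during steatohepatitis.

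Promoters of 4 ligands are shown, all holding the NF-kB motif searched here. Cxcl1 and Cxcl2 are the neutrophil ligands beside each other on chromosome 5. Cxcl10, known as an interferon-induced ligand, passed in no diet comparison as fitted here, and Ccl9 is a ligand of Ccr1 on chromosome 11. Each sequence covers the 250 bases before the transcript start in RefSeq, assembly GRCm38.p6, written 5′ to 3′ on the strand of the gene. They lie at chr5:90890995-90891244 (plus strand) for Cxcl1, chr5:90903649-90903898 (plus strand) for Cxcl2, chr5:92348890-92349139 (minus strand) for Cxcl10 and chr11:83578637-83578886 (minus strand) for Ccl9. Capitals mark matches to an NF-kB motif on either strand, to the interferon-stimulated response element (ISRE) on either strand, or to the TATA box TATAAA on the strand of the gene.
Cxcl1: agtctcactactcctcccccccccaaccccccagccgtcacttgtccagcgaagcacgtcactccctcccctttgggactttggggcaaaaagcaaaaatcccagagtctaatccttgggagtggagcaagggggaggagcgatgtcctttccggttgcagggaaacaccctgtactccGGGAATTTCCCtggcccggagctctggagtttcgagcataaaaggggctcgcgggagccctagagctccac
Cxcl2: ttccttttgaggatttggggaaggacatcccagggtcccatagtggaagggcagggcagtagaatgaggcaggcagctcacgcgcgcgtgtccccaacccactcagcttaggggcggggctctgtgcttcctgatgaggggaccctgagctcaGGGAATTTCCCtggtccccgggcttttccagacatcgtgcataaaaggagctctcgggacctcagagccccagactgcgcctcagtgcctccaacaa
Cxcl10: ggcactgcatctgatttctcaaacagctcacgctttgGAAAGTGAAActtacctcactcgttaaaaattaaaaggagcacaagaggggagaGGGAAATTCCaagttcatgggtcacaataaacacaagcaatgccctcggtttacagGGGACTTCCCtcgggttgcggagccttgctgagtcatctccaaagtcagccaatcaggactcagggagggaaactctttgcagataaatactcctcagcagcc
Ccl9: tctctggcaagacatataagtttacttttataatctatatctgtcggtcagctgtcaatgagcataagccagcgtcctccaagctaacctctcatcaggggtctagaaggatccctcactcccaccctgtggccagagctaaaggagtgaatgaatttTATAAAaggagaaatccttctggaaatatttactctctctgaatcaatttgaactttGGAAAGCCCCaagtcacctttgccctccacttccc
In Cxcl1 the capitals are 2 overlapping NF-kB matches, 1 on each strand, from position -71 to -61 before the start, and Cxcl2 has the same letters from -97 to -87. Cxcl10 has NF-kB matches starting at -159 and -103 and an ISRE at -213. In Ccl9 an NF-kB match on the opposite strand starts at -35 and a TATA box at -92.

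RefSeq promoters were at hand for 39 of the 52 genes. The NF-kB motif was found in 6 of these 39 (15.4%), against 1014 of all 27025 promoters of that length (3.75%). Those 6 were Cxcl1, Cxcl2, Cxcl10, Ccl9, Ccl20 and Ccr3. The ISRE was in 3 (7.69%, against 3.04% of all promoters), namely Cxcl10, Cxcl14 and Ccl19, and TATAAA in 9 (23.1%, against 8.12%). The AP-1 motif TGANTCA and the interferon-gamma motif TTCNNNGAA, on both strands, were in 4 members each (10.3%), against 6.87% and 7.18% of all promoters. Of the 9 members with a promoter entry that were higher on the atherogenic diet over both genotypes, 3 held the NF-kB motif, and of the other 30 members 3 did. A match describes letters only, and no binding was measured.

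All 19 arrays were of similar completeness, with 22763 to 23511 measured probes each, and the deposited intensities have no stated unit. The probe of Alox5, the targeted gene, was dim in every group, with 0.03 to 0.05 in wild type and 0.03 to 0.07 in the knockout on chow, and the genotype difference passed on neither diet (log2 differences of 0.21 for chow, with an adjusted p of 0.349 in limma, and 0.10 for atherogenic feeding, with an adjusted p of 0.86). No source used here says whether it lies in the deleted part, so it does not check the labels. The hepatocyte markers Alb, Apoa1, Ttr and Cyp2e1 were bright in all groups, with Alb between 1.34 and 3.41. Among 81 pairs of arrays that share a pool, the lowest correlation of log ratios was -0.33, and ratios were read as mouse over pool because the labels name the dye of each channel. As each diet had its own pool and its own set of arrays, diet, pool and hybridisation set cannot be told apart. In whole liver, fewer cells of a type and less RNA per cell cannot be told apart either.

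Most of these genes gave weak signals. A probe was called dim when its mean log2 mouse intensity lay below that of 0.1 in all 4 groups, and 32 of the 55 probes were dim (58.2%, against 52.5% of all probes). Among the ligands, 14 of 23 CC probes were dim, 1 of 4 with ELR and 2 of 7 without. Among the receptors, 8 of 11 CC probes and 4 of 6 CXC probes were dim. The receptors that were not dim were Ccr3, Ccr7, Ccr10, Cxcr3 and Cxcr6. Dim receptors included Ccr1, Ccr2, Cxcr2, Cxcr4 and Cx3cr1, which are carried by monocytes, neutrophils and other leukocytes, and Ccr1 read 0.03 to 0.08 over all 19 mice. Values of 0.01 or more were rounded to 2 decimals by the authors, so log ratios of dim probes move in steps. Cxcl12, the ligand of Cxcr4 that stromal and endothelial cells make constantly, read 11.62 to 28.38 and was bright in every mouse. Both Ccl8 probes moved together, while the probes of Ccl12 disagreed and those of Ccl27a had diet differences of 1 sign and unequal size. Ccl19, Ccl21b and Ccl27a have near-identical copies in the mouse genome that 1 probe may not separate, so their values are uncertain.

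The question of the study was how the knockout liver differed from wild type, on chow and after atherogenic feeding. For the diet, the mouse channel was compared after loess and Aquantile normalisation, with limma over all 23344 probes tested and a Benjamini-Hochberg adjusted p under 0.05.

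In wild-type liver 8 of the 55 probes rose on the atherogenic diet and 0 fell. Over all probes 4.62% were higher and 2.54% lower. The 8 were Ccl6, Cxcl1, Cxcl16, Ccl9, Ccl2, Cxcl14, Ccr7 and Ccl3. In knockout liver 11 rose and 3 fell, against 5.23% higher and 4.37% lower over all probes. Those that rose were Ccl6, Cxcl16, Ccl3, Cxcr7, Cxcl1, Ccl2, Ccl9, Ccl4, Cxcl2, Ccl7 and Cxcl5, and those that fell were Ccr3, probe 2 of Ccl27a and probe 2 of Ccl12. Averaged over genotypes 18 probes of 17 genes rose and 6 fell, against 10.5% and 11.1% of all probes, and 10 of these 24 were dim. The median difference of the 55 probes was 0.43 in wild type and 0.08 in knockout on the log2 scale, beside -0.04 and -0.01 over all probes. With each mouse channel only centred on its median, the counts were 9 higher and 2 lower in wild type, 9 and 4 in knockout and 16 and 9 on average. With intensities as deposited the average gave 19 higher and 2 lower. Floors of 0.05 or 0.1 under the intensities ended the knockout calls of Ccl2, Ccl4, Ccl7, Cxcl2, Cxcl5, Cxcr7 and probe 2 of Ccl12 and the wild-type calls of Ccl3 and Cxcl14, and the floor of 0.1 also ended the knockout calls of Ccl3, Ccl9 and Cxcl16. Every mouse read at least 0.54 for Ccl9 and 0.1 for Ccl4, so the floors changed none of these readings. Over all settings their knockout differences ran from 0.67 to 1.02 and from 1.56 to 2.03.

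**Figure D1:**
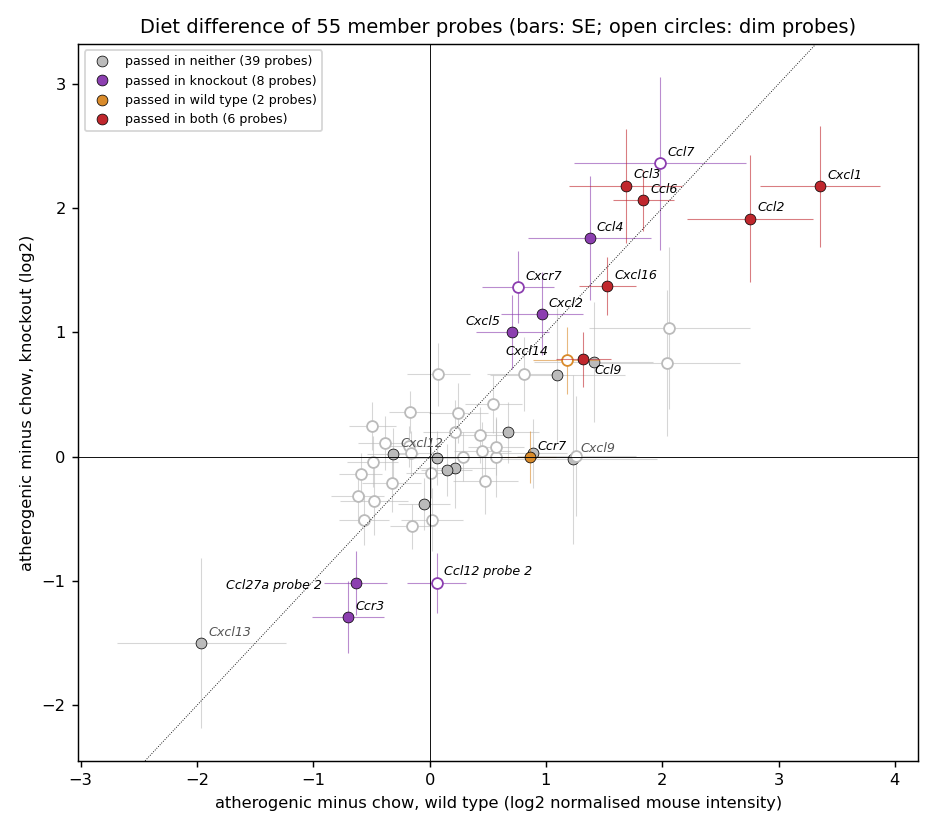
Each point is 1 of the 55 probes, with the diet difference in wild type on the horizontal axis and in knockout on the vertical axis, both as log2 differences of the normalised mouse channel with bars of 1 SE. Filled colours mark probes that passed the test in 1 or both genotypes, open circles mark dim probes, and the dotted line marks equal differences. Cxcl1, Ccl2, Ccl3, Ccl6, Ccl9 and Cxcl16 passed in both, and Cxcl1 lay farthest to the right at 3.36.

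The ligands with ELR, which bind Cxcr2 on neutrophils, were led by Cxcl1. Its mouse intensity was 0.09, 0.74, 0.13, 0.05 and 0.1 in the 5 wild-type mice on chow, and 3.42, 1.36, 1.17 and 1.01 in the 4 on the atherogenic diet. In the knockout it was 0.07, 0.15, 0.16, 0.17 and 0.12 on chow and 0.54, 0.75, 0.63, 0.6 and 0.97 on the atherogenic diet. All mice on the atherogenic diet lay above all mice of their genotype on chow, though wild-type mouse B on chow stood well apart from its 4 group mates. The log2 difference was 3.36 ± 0.52 (SE) in wild type, a 10.2-fold rise with an adjusted p of 0.000327 in limma, and 2.17 ± 0.49 in knockout, a 4.52-fold rise (adjusted p = 0.00923). Without chow mouse B the wild-type difference was 3.95 (adjusted p = 4.38e-06). Whether the rise differed by genotype was tested on the ratios, where the knockout effect after atherogenic feeding minus that on chow was -1.02 ± 0.71 with an adjusted p of 0.784.

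Cxcl2, a neighbour of Cxcl1 with the same receptor, followed at lower signal. It read 0.05, 0.15, 0.08, 0.07 and 0.05 in wild type on chow and 0.22, 0.22, 0.12 and 0.15 on the atherogenic diet, with mouse B on chow inside the range of the diet group. In the knockout it read 0.04, 0.04, 0.05, 0.03 and 0.07 on chow and 0.07, 0.11, 0.11, 0.16 and 0.12 on the diet, so that the groups touched at 0.07. The rise was 1.15 ± 0.33 in knockout (adjusted p = 0.0355), while wild type gave 0.96 ± 0.35 (adjusted p = 0.103). Cxcl5, a further ligand of Cxcr2, rose by 1.00 ± 0.30 in knockout (adjusted p = 0.0395) and gave 0.71 ± 0.32 in wild type (adjusted p = 0.176). The call for Cxcl2 in the knockout was lost without any 1 of 6 mice (adjusted p 0.0529 to 0.0864) and that for Cxcl5 without any 1 of 7 (0.0546 to 0.104). Cxcl15, known from lung, was dim and gave differences of -0.17 in wild type and 0.08 in knockout. The receptor Cxcr2 was dim too, between 0.02 and 0.06 in all mice, with 0.45 ± 0.25 in wild type and 0.05 ± 0.23 in knockout.

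Among the CC ligands, the ligands of Ccr2 include Ccl2, the main attractant of monocytes. Its intensity was 0.08, 0.73, 0.1, 0.07 and 0.11 in wild type on chow and 1.1, 1.44, 0.76 and 0.99 on the atherogenic diet. Knockout mice read 0.1, 0.05, 0.24, 0.05 and 0.1 on chow and 0.23, 0.41, 0.35, 0.51 and 0.58 on the diet. Chow mouse B of the wild type and chow mouse C of the knockout were the high values of their groups, and the latter lay above the lowest knockout mouse on the diet. Ccl2 rose by 2.75 ± 0.54 in wild type (6.75-fold, adjusted p = 0.00331) and by 1.92 ± 0.51 in knockout (3.78-fold, adjusted p = 0.0249). Without chow mouse B the wild-type value was 3.34 (adjusted p = 4.68e-05). The knockout call was lost without chow mouse B or D or without atherogenic mouse D or E, with differences of 1.65 to 1.82 and adjusted p from 0.0512 to 0.0717.

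Ccl7, which also binds Ccr2, was dim, at 0.00391 to 0.05 on chow and 0.02 to 0.62 on the atherogenic diet. It rose by 2.36 ± 0.70 in knockout (adjusted p = 0.0387) and gave 1.98 ± 0.74 in wild type (adjusted p = 0.108). The value of 0.62 belonged to knockout mouse B, on whose array the pool also read 2.35 for Ccl7, while the same pool read 0.06 or 0.07 on the 8 other arrays of the diet. Without that mouse the knockout difference was 1.496 with an adjusted p of 0.0516, and it was also lost without chow mouse B, D or E (adjusted p up to 0.102).

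Ccl12, a further ligand of mouse Ccr2, had 2 dim probes that disagreed. Probe 2 fell by 1.01 in knockout (SE 0.24, adjusted p = 0.0133) and gave 0.06 in wild type. The atherogenic pool, the same RNA on each array, read 0.03, 0.07, 0.02, 0.04 and 0.07 for probe 2 beside the knockout mice. These mice read 0.02, 0.07, 0.02, 0.04 and 0.07, and the pool beside the wild-type mice read 0.11, 0.06, 0.11 and 0.06. Probe 1 gave -0.14 in knockout and -0.59 in wild type. On average probe 1 fell by 0.37 (adjusted p = 0.0459) and probe 2 gave -0.48 (adjusted p = 0.0575). Ccl8, which binds Ccr8 in mouse, rose on average by 1.40 ± 0.43 for probe 1 and 1.55 ± 0.47 for probe 2 (adjusted p = 0.0259 and 0.0255). Both probes were dim, with single mice at 0.24 in wild type (mouse B) and at 0.19 and 0.2 in knockout (mouse B) on the atherogenic diet. Without the wild-type mouse the averages were 1.03 and 1.14, with adjusted p of 0.0609 and 0.0591. Ccl11, the eotaxin of the same run of genes on chromosome 11, was dim and gave 0.57 in wild type and 0.00 in knockout. Ccl1, the end of that run and a ligand of Ccr8, was dim and rose by 0.48 on average (adjusted p = 0.0461), a call lost without any 1 of 14 mice.

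Further CC ligands on chromosome 11 moved as well. Ccl6, a rodent chemokine of macrophages and other myeloid cells, read 0.03 to 0.05 in wild type and 0.02 to 0.04 in knockout on chow. On the atherogenic diet it read 0.18, 0.18, 0.14 and 0.19 in wild type and 0.1, 0.2, 0.14, 0.16 and 0.17 in knockout. No mouse on the diet overlapped a mouse on chow. The rise was 1.84 ± 0.26 in wild type (3.58-fold, adjusted p = 0.000143) and 2.06 ± 0.24 in knockout (4.17-fold, adjusted p = 3.39e-05).

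Ccl9, which binds Ccr1 and is made by macrophages and osteoclasts, had a brighter probe. It read 0.66, 0.54, 1.04, 0.71 and 0.59 in wild type on chow and 2.13, 1.71, 1.78 and 1.85 on the diet, without overlap. Knockout mice read 0.68, 0.79, 0.86, 0.85 and 0.8 on chow and 0.91, 1.86, 1.51, 1.76 and 2.37 on the diet, and mouse A on the diet lay close to the chow group. The differences were 1.32 ± 0.23 in wild type (2.50-fold, adjusted p = 0.00122) and 0.79 ± 0.22 in knockout (1.72-fold, adjusted p = 0.0307). The knockout call was lost without any 1 of 6 mice, with adjusted p from 0.0514 to 0.0859.

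Ccl3, a ligand of Ccr1, read 0.03, 0.2, 0.03, 0.02 and 0.02 in wild type on chow and 0.16, 0.15, 0.11 and 0.18 on the diet. Only mouse B on chow reached the level of the diet. Its rise was 1.69 ± 0.49 in wild type (adjusted p = 0.0395) and 2.18 ± 0.46 in knockout (adjusted p = 0.00603). Without chow mouse B the wild-type value was 2.28 (adjusted p = 7.06e-05), and the call was lost without any 1 of 7 mice, namely all but chow mouse B and atherogenic mouse C (adjusted p 0.0758 to 0.1065). Over all settings its adjusted p ran from 7.06e-05 to 1.

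Ccl4, an attractant of monocytes and T cells, read 0.16, 1.34, 0.14, 0.13 and 0.12 in wild type on chow and 0.79, 0.81, 0.46 and 0.63 on the diet, so mouse B on chow was above the whole diet group. Knockout mice read 0.13, 0.1, 0.29, 0.17 and 0.26 on chow and 0.39, 0.73, 0.74, 1.19 and 0.76 on the diet, without overlap. Ccl4 rose by 1.76 ± 0.50 in knockout (3.39-fold, adjusted p = 0.032), and wild type gave 1.38 ± 0.53 (adjusted p = 0.119), or 2.01 with an adjusted p of 0.00097 without mouse B. The knockout call was lost without any 1 of 6 mice (adjusted p 0.0538 to 0.0883). Ccl5, a product of T and NK cells, rose by 1.09 ± 0.35 on average (adjusted p = 0.0328). Its highest value, 1.87, was that of wild-type mouse B on the diet, against 0.18 to 0.32 in the other 8 mice on the diet. The average was lost without wild-type chow mouse D or E, knockout chow mouse B or knockout atherogenic mouse C (adjusted p 0.0533 to 0.063).

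Other CC ligands moved less. Ccl27a, a skin chemokine that binds Ccr10, fell by 1.02 in knockout (SE 0.26, adjusted p = 0.0177) and by 0.83 on average (adjusted p = 0.00399) at probe 2, which read 0.8 to 3.01. The knockout call was lost without atherogenic mouse E (-0.89, adjusted p = 0.0539). Probe 1 of the gene was dim at 0.02 to 0.05 and gave -0.56 in knockout and -0.36 on average, past no threshold (adjusted p = 0.0575 and 0.0607). Ccl28, the mucosal ligand of Ccr10, was dim and fell by 0.47 on average (adjusted p = 0.0397), a call lost without any 1 of 12 mice. Ccl17, Ccl19, Ccl20, Ccl21b, Ccl22, Ccl24 and Ccl25 did not pass in any diet comparison as fitted here, though Ccl20 passed in wild type with array weights or without atherogenic mouse D. Of these, Ccl20, the ligand of Ccr6, gave 1.26 ± 0.51 in wild type (adjusted p = 0.138), with 0.13 in atherogenic mouse B and 0.00743 to 0.03 in the other mice of both wild-type groups. Ccl22, a ligand of Ccr4 made by dendritic cells and macrophages, gave 0.22 in wild type and -0.09 in knockout.

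The CXC ligands without ELR split. Cxcl16, a membrane-bound ligand of Cxcr6 that also takes up oxidised lipoprotein, read 0.03, 0.06, 0.04, 0.04 and 0.05 in wild type on chow and 0.15, 0.16, 0.15 and 0.14 on the diet. Knockout mice read 0.05, 0.03, 0.06, 0.04 and 0.04 on chow and 0.09, 0.15, 0.09, 0.15 and 0.15 on the diet. The groups did not overlap in either genotype. Cxcl16 rose by 1.53 ± 0.24 in wild type (2.88-fold, adjusted p = 0.000485) and by 1.37 ± 0.23 in knockout (2.59-fold, adjusted p = 0.000978).

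Cxcl14, a chemokine of epithelia and resting tissue, was dim at 0.02 to 0.1, and rose by 1.18 ± 0.29 in wild type (adjusted p = 0.0156), a call lost without atherogenic mouse B (0.92, adjusted p = 0.0785). On average it rose by 0.98 ± 0.20 (adjusted p = 0.0017). Cxcl12 gave -0.32 ± 0.22 in wild type and 0.02 ± 0.21 in knockout, and did not pass. With each mouse channel only centred on its median, Cxcl12 passed as lower in wild type and on average, and the pool of the diet lay below that of chow by a log2 difference of -0.98. Its wild-type intensities of 23.74, 28.38, 28.31, 26.11 and 24.11 on chow and 22.44, 15.27, 15.89 and 16.61 on the diet did not overlap as deposited, but overlapped after normalisation.

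The interferon-induced ligands of Cxcr3 did not pass in either genotype. Cxcl9 read 0.86, 2.47, 1.46, 0.88 and 1.64 in wild type on chow and 1.63, 26.15, 2.09 and 1.14 on the diet, where mouse B stood apart from its 3 mates. Knockout mice read 2.84, 0.87, 7.83, 1.17 and 1.32 on chow, with mouse C highest, and 1.32, 2.27, 3.32, 1.9 and 2.67 on the diet. The differences were 1.24 ± 0.72 in wild type (adjusted p = 0.313) and -0.02 ± 0.68 in knockout (adjusted p = 0.989), and without wild-type atherogenic mouse B the former was 0.18. Cxcl10 read 0.14 to 0.79 in wild type on chow and 0.34 to 1.39 on the diet, each time highest in mouse B. It gave 1.099 ± 0.58 in wild type (adjusted p = 0.261) and 0.65 ± 0.55 in knockout (adjusted p = 0.462). The average was 0.88 ± 0.40 (adjusted p = 0.119), and it passed without wild-type chow mouse B or without knockout chow mouse C. Cxcl11 was dim, with -0.17 in wild type and 0.36 in knockout.

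Cxcl13, which attracts B cells through Cxcr5, was the ligand with the largest fall on average. It read 1.08, 11.05, 0.68, 0.56 and 0.8 in wild type on chow and 0.26, 1.62, 0.27 and 0.16 on the diet, with mouse B highest in both groups. Knockout mice read 0.85, 0.44, 0.94, 0.26 and 0.24 on chow and 0.29, 0.31, 0.18, 0.15 and 0.14 on the diet, which overlapped. On average it fell by 1.73 (SE 0.50, adjusted p = 0.0188), with -1.96 ± 0.73 in wild type and -1.50 ± 0.69 in knockout (adjusted p = 0.106 and 0.166). The average missed the threshold with floors of 0.05 or 0.1 under the intensities and with intensities as deposited (adjusted p 0.0533 to 0.0618). In a setting added after the data were seen, without both wild-type mice B, the wild-type difference of Cxcl13 was -1.92 with an adjusted p of 0.0145.

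**Figure D2:**
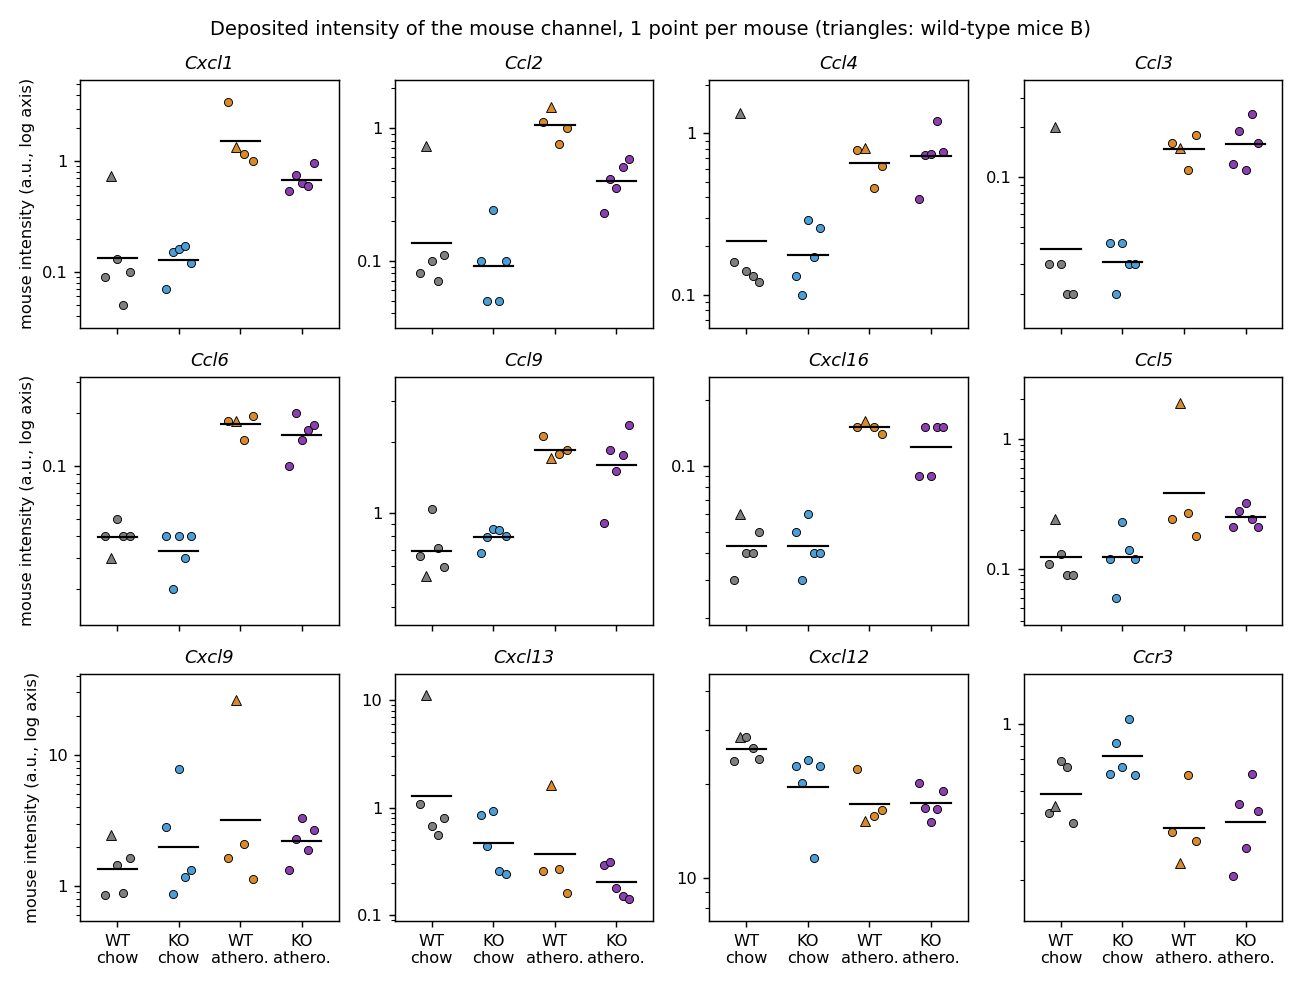
Each panel shows the deposited intensity of the mouse channel (arbitrary units, log axis) of 1 gene, with 1 point per mouse in the 4 groups (WT, wild type; KO, knockout) and a line at the geometric mean. Triangles mark the wild-type mice B of both diets, which stand above their mates for Ccl2, Ccl3, Ccl4, Cxcl1 and Cxcl13 on chow and for Ccl5, Cxcl9 and Cxcl13 on the atherogenic diet.

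Over both genotypes 15 of 36 ligand probes rose and 4 fell, against 10.5% of all probes higher and 11.1% lower. Of the 19 receptor probes 3 rose and 2 fell. These receptor counts, and the 4 ligand probes that fell, were near the shares over all probes. Ccr7, which leads dendritic cells and T cells to lymph nodes, rose in wild type by 0.86 ± 0.22 (1.82-fold, adjusted p = 0.0211). It read 0.09, 0.13, 0.16, 0.12 and 0.11 on chow and 0.22, 0.43, 0.27 and 0.19 on the diet, and the call was lost without chow mouse A or E or atherogenic mouse B (adjusted p 0.051 to 0.1) and with each mouse channel only centred on its median (0.78, adjusted p = 0.0604). In knockout it gave -0.00 ± 0.21 (adjusted p = 0.997). The difference of the genotype effects between diets, from the ratios, was -0.78 ± 0.28 with an adjusted p of 0.784.

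Cxcr7 (Ackr3), a scavenging receptor of Cxcl12, was dim, at 0.02 to 0.04 on chow and 0.04 to 0.09 on the diet. It rose by 1.36 ± 0.29 in knockout (2.57-fold, adjusted p = 0.00687) and gave 0.76 ± 0.31 in wild type (adjusted p = 0.139). Ccr3, the eotaxin receptor of eosinophils, fell by 1.29 in knockout (SE 0.29, adjusted p = 0.00951). Knockout mice read 0.6, 0.82, 0.64, 1.05 and 0.59 on chow and 0.21, 0.44, 0.28, 0.6 and 0.41 on the diet. On the same arrays the pools read 0.56, 0.51, 0.47, 0.32 and 0.4 on chow and 0.2, 0.41, 0.21, 0.54 and 0.4 on the diet. Wild-type mice read 0.4, 0.43, 0.68, 0.64 and 0.36 on chow and 0.33, 0.24, 0.59 and 0.3 on the diet, with overlap and a difference of -0.70 ± 0.31 (adjusted p = 0.171). Ccr8, a receptor of regulatory and type 2 helper T cells, was dim and fell by 0.54 on average (adjusted p = 0.015).

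Cxcr3 and Cxcr6, receptors of T and NK cells, gave 0.68 ± 0.26 and 0.89 ± 0.29 in wild type (adjusted p = 0.121 and 0.0695) and 0.20 and 0.03 in knockout. Without wild-type chow mouse B they passed, with 0.86 for Cxcr3 and 1.11 for Cxcr6 (adjusted p = 0.046 and 0.018). The monocyte receptors Ccr1, Ccr2 and Cx3cr1 were dim and passed in no diet comparison as fitted here, with averages of -0.06, 0.32 and 0.37. Cxcr2 (0.25), Cxcr4 (0.21), Ccr1l1, Ccr4, Ccr6, Ccr9, Cxcr5, Xcr1 and Cx3cl1, all dim, passed in none of these comparisons either. Nor did Ccr10 and Xcl1, which were not dim. The averages from Ccr1l1 to Xcl1 ran between -0.42 and 0.14. In other settings Ccr2 passed in wild type with intensities as deposited, and Cx3cr1 in knockout without chow mouse A. Cxcr5 passed on average without wild-type atherogenic mouse B.

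Markers of other cell types moved with the diet, and their part in the chemokine differences was not tested. Over all probes 4.62% were higher and 2.54% lower on the diet in wild type, and 5.23% and 4.37% in knockout. Of 10 measured monocyte and macrophage genes 8 rose in each genotype, with a summed mouse intensity of 4.33 to 5.01 in wild type on chow and 12.37 to 16.29 on the diet, and 4.18 to 5.95 and 10.92 to 17.95 in knockout. Among them Trem2, a receptor of lipid-handling macrophages, rose by 4.28 and 3.75, and Lyz2, the lysozyme of myeloid cells, by 2.57 and 1.61. Of the 6 Kupffer cell genes 3 rose and 1 fell in each genotype, with Cd5l up by 2.64 and 3.20 and Cd163 down, at -3.80 and -4.19. Neutrophil genes rose in wild type (5 of 9, among them Ngp by 3.74 and S100a9 by 2.85) and 0 passed in knockout. Their summed intensity was 0.477 to 1.09 in wild type on chow, 2.34 to 5.41 on the diet, and 0.86 to 4.71 and 1.12 to 26.02 in knockout. The lowest neutrophil gene was at -0.69 in wild type, and 1 of the 9 passed as lower averaged over genotypes. For 0 of the 9 did the genotype effect pass the test of difference between the diets, so no genotype difference in the rise was shown. Of the T and NK cell genes 1 of 13 rose in wild type (Klrb1c, 1.05) and 0 in knockout. Among 6 dendritic cell genes 3 rose in wild type and 2 in knockout, and the 3 include Ccr7, already counted among the members. Xcr1 in that list and Ccr2 among the monocyte and macrophage genes are members as well, and neither passed. Among 5 stellate cell genes 2 rose in each genotype, among 5 B cell genes 1 in each and among 6 endothelial genes 1 in wild type. Of the marker probes, 3 of 11 were dim for monocytes and macrophages, 0 of 7 for Kupffer cells, 5 of 9 for neutrophils and 6 of 13 for T and NK cells.

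Other lists showed what surrounds chemokine signals. Their counts stand beside the same shares over all probes as those of the cell markers. Of 25 measured genes of receptor signalling, 6 rose in wild type and 6 rose and 1 fell in knockout (medians 0.49 and 0.38). Rac2, the GTPase of leukocyte migration, rose by 1.51 and 1.17, and Was, which drives actin assembly, by 1.13 and 1.38. Elmo1, a partner of Dock proteins, fell in knockout by 1.72. Of 20 inducers, 7 rose in wild type and 4 in knockout (medians 0.60 and 0.31). Among these were Tlr2, a receptor of bacterial lipoproteins (1.89 and 1.87), Il6 (1.66 and 1.34) and Tlr4, the endotoxin receptor (1.18 and 1.49), while Nfkb2, a subunit of the alternative NF-kB pathway, rose in wild type by 0.95. Of 9 genes of ligand processing 1 rose in each genotype and 2 fell in knockout, with Mmp12, the macrophage elastase that trims chemokines, at 5.79 and 4.58. A list of relatives had 11 measured genes, among them Cxcr2 and Cxcr7, which are members by symbol as well. Of the 11, 2 rose in knockout and 0 in wild type, namely Cxcr7, already counted among the members, and Rarres2, the chemerin precursor, at 0.81.

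The pool channel gave a further reading of the diet in wild type, though its RNA came from the same wild-type mice and it is no independent sample. Pool values were only centred on the median of each array, without loess or Aquantile, and were not tested. They are thus on another scale than the mouse differences above. Between the pools the log2 difference was 3.07 for Cxcl1, 2.42 for Ccl2, 1.90 for Ccl6, 1.23 for Cxcl16, 1.03 for Ccl9 and -2.003 for Cxcl13. Cxcl9 differed by 2.57 between the pools, where atherogenic mouse B was 1 of 4 contributors, and Ccl5 by 2.36.

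Single mice shaped several of these values. Wild-type mouse B on chow was the highest of its 5 mates for 18 of the 55 probes, and wild-type mouse B on the atherogenic diet the highest of 4 for 25. Knockout mouse D on chow was the highest for 17 and the lowest for 12, and its log ratios had the widest spread over all probes, with an SD of 1.01 against 0.239 to 0.538 in the other 18 mice. Letters name columns within a group only and link no mice across groups. Each pool holds RNA of all wild-type mice of its diet, so a wild-type ratio compares a mouse with a mixture that contains it.

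**Figure D3:**
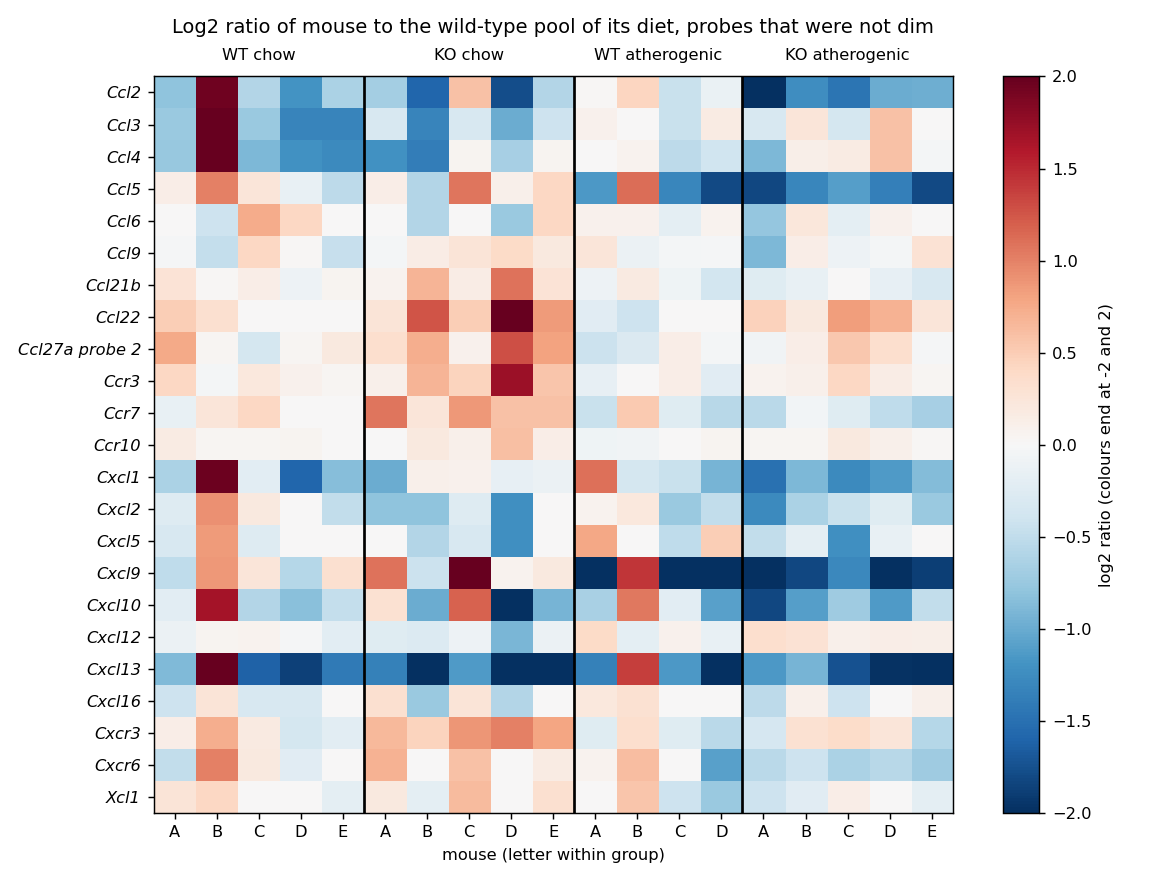
Rows are the 23 probes that were not dim and columns the 19 mice in 4 groups, with colour for the log2 ratio of mouse to the pool of its diet (colours end at -2 and 2). The dark column of mouse B among wild-type mice on chow holds Ccl2 at 1.94, Ccl4 at 2.07 and Cxcl13 at 2.42, and the row of Cxcl9 is negative in 3 of 4 wild-type and 5 of 5 knockout mice on the atherogenic diet.

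For the genotype, log2 ratios of mouse to pool were compared, in which the pool cancels within a diet. On chow 0 of the 55 probes passed in limma, against 1.13% of all probes, while 10 had an unadjusted p under 0.05 (27.4% of all probes did). Only Ccr6 had groups that did not overlap, against 3.39% of all probes. The 5 members with the lowest p were Ccr6, Ccl22, Cxcr3, Cxcr7 and Ccr7. The median difference of the members was 0.09, and 0 over all probes.

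Ccr6, the receptor of Ccl20 on B cells and type 17 helper T cells, had log ratios of 0 in all 5 wild-type mice on chow and of 1.00, 0.74, 0.74, 0.81 and 0.58 in knockout mice. It was dim, at 0.03 to 0.07 on chow, where the deposited values move in steps of 0.01. The difference was 0.77 ± 0.22 (adjusted p = 0.0633). Cxcr3 gave 0.66 ± 0.22 (adjusted p = 0.0919), from 0.13, 0.73, 0.18, -0.35 and -0.21 in wild type and 0.65, 0.45, 0.89, 1.00 and 0.80 in knockout, which overlapped only through wild-type mouse B. Ccr7 gave 0.57 ± 0.19 (adjusted p = 0.0982) and Cxcr7 -0.57 ± 0.19 (adjusted p = 0.0951).

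On the atherogenic diet 0 probes passed, against 0.0214% of all probes, and 7 had an unadjusted p under 0.05 (10.7% of all probes did). The groups did not overlap for 3 of the 55 probes, namely Ccl2 and Ccl7, lower in knockout, and Ccl22, higher. This was near the share over all probes, 5.1%, so lack of overlap does not set the members apart. Ccl2 had log ratios of 0.03, 0.43, -0.45 and -0.13 in wild type and -2.19, -1.24, -1.46, -0.99 and -0.97 in knockout, every knockout mouse below every wild-type mouse. Its difference was -1.34 ± 0.53, 2.53-fold lower with a 95% interval of -2.46 to -0.22 (adjusted p = 0.386). Ccl7 gave -1.23 ± 0.41 (adjusted p = 0.292), Ccr2, the receptor of both, -0.70 ± 0.15 (adjusted p = 0.126), Cxcl11 0.43 ± 0.16 (adjusted p = 0.336) and Ccl24, an eotaxin, -0.51 ± 0.20 (adjusted p = 0.371). Ccl7, Ccr2, Cxcl11 and Ccl24 were dim, and the 10 chow ratios of Ccr2 were all 0. The lowest Ccl7 ratio, -1.92 in knockout mouse B, came from the array where the pool read 2.35, against 0.06 or 0.07 elsewhere on the diet. The other knockout mice had Ccl7 ratios of -1.59 to -0.81. Cxcl1 gave -0.98 ± 0.52 (adjusted p = 0.514), with knockout mice from -1.49 to -0.87 and wild-type mice from -0.93 upward, so that the groups overlapped.

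The better known members that remained passed on neither diet, and their differences follow for chow first and then for atherogenic feeding. Ccl3 gave -0.25 and 0.08, Ccl4 -0.22 and 0.20, Ccl5 0.09 and -0.69, Ccl6 -0.33 and -0.14, and Ccl9 0.29 and -0.13. Among CXC ligands, Cxcl2 gave -0.69 and -0.43, Cxcl9 0.63 and -0.41, Cxcl10 -0.41 and -0.83, Cxcl13 -1.43 and -0.82, and Cxcl16 0.01 and -0.28. None of these 10 passed, with adjusted p from 0.133 for Cxcl2 on chow upward, and the SE of Cxcl9 and Cxcl13 reached 0.69 to 0.77. Several of these values rested on 1 wild-type mouse. Without chow mouse B the chow values were 0.35 for Ccl3, 0.40 for Ccl4, 0.03 for Cxcl10 and -0.66 for Cxcl13, so that the sign turned for the first 3, and none passed (adjusted p 0.384 to 0.993). Without atherogenic mouse B, Cxcl9 gave 0.59, of opposite sign, Ccl5 -0.06 and Cxcl10 -0.40 on the atherogenic diet. Of the receptors, Cxcr6 gave 0.19 and -0.47, Cxcr2 0.18 and -0.33, Cxcr4 0.23 and 0.13, Ccr1 0.11 and -0.30 and Cx3cr1 0.12 and 0.12.

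Averaged over diets 1 member passed, Ccl22, against 3.89% of all probes higher and 2.87% lower. The call was lost with a floor of 0.1 under the intensities. Wild-type mice read 0.03 to 0.07 on chow and 0.06 to 0.08 on the atherogenic diet. In knockout Ccl22 read 0.06 to 0.28 and 0.08 to 0.16, so only the knockout mice kept it from being called dim. Its log ratios were 0.48, 0.32, 0.00, 0.00 and 0.00 in wild type and 0.26, 1.26, 0.48, 2.00 and 0.85 in knockout on chow. On the atherogenic diet they were -0.22, -0.41, 0.00 and 0.00 in wild type and 0.46, 0.19, 0.83, 0.70 and 0.24 in knockout. Knockout mice were above the wild type on the atherogenic diet without overlap, while on chow knockout mice A and C did not exceed wild-type mouse A. The average difference was 0.73 ± 0.18, 1.66-fold (adjusted p = 0.0261). It missed the threshold without any 1 of 7 mice (wild-type chow D or E, knockout chow B, wild-type atherogenic A or D, knockout atherogenic C or D, with adjusted p from 0.0509 to 0.0616), and over all settings ranged from 0.32 to 0.82 with adjusted p of 0.00571 to 0.354. The next members were Ccr2 at -0.35 (adjusted p = 0.0518), Cxcl2 at -0.56 (0.0937), probe 2 of Ccl27a at 0.43 (0.0977) and Ccl28 at 0.28 (0.107).

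The genotype effect did not pass a test of difference between the diets for any of the 55 probes, as for 0% of all probes, with 6 at an unadjusted p under 0.05 (5.77% of all probes). The 5 with the lowest p were Ccr2 (-0.70), Ccr7 (-0.78), Ccr6 (-0.78), Cxcr7 (0.60) and Cxcl12 (0.45), with adjusted p of 0.738 for Ccr2 and 0.784 for the other 4. For Cxcl12 the knockout minus wild type value was -0.28 ± 0.14 on chow, where knockout mouse D was lowest at -0.91, and 0.17 ± 0.15 on the atherogenic diet.

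**Figure D4:**
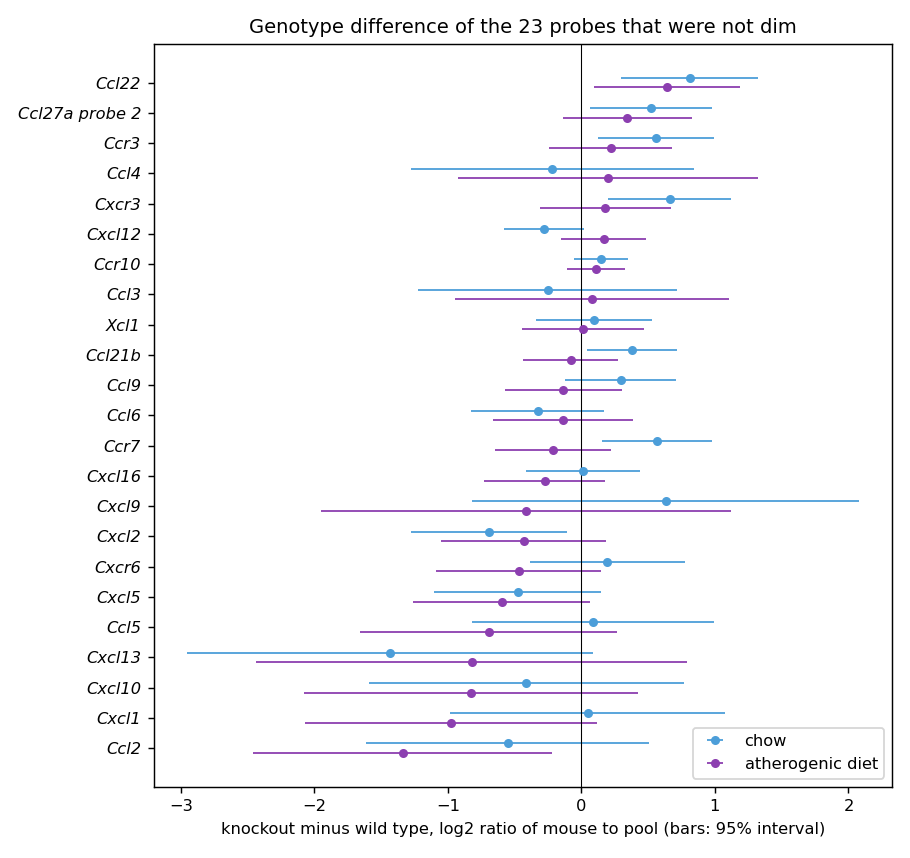
Points are the knockout minus wild type differences of the log2 ratio for the 23 probes that were not dim, on chow and on the atherogenic diet, with 95% intervals and rows ordered by the value on the atherogenic diet. Ccl22, kept from being called dim only by the knockout mice, is at the top with both intervals above 0 before adjustment. Ccl2 is at the bottom with -0.55 on chow and -1.34 on the atherogenic diet. Without wild-type mouse B the chow value of Ccl2 was -0.00 and that of Cxcl1, at 0.05 here, was 0.60.

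Among the cell type lists 0 genes passed for genotype on either diet, against 1.13% of all probes on chow and 0.0214% on the atherogenic diet. Averaged over diets, 1 gene each passed lower in the knockout for monocytes and macrophages, T and NK cells and dendritic cells. For B cells and endothelium 1 each passed higher. Over all probes 3.89% passed higher and 2.87% lower, so a single gene that passed, here or below, is no result about its list. The 9 neutrophil genes had a median of 1.43 in knockout against wild type on chow and 0 passed, with Ngp at 2.50 (adjusted p = 0.0845) and S100a8 at 1.46 (adjusted p = 0.153). Under atherogenic feeding the median of these 9 genes was 0.08, with values from -0.39 to 0.30. Monocyte and macrophage genes had a median of 0.20 on chow and one of -0.08 under atherogenic feeding. Cd14, the endotoxin co-receptor, fell by 0.69 on average (adjusted p = 0.0266). Among the inducers Nfkbiz, a regulator of NF-kB target genes, fell by 1.04 on average (adjusted p = 0.021), and among the relatives Darc (Ackr1), a decoy receptor of red cells and venules, rose by 0.71 on average (adjusted p = 0.0256). Their part in the chemokine values was not tested.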

How the data were processed

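Total RNA of each liver, extracted with Trizol, was amplified in a 2-round protocol and hybridised on 2-colour arrays, per the labels' protocols. Agilent Feature Extraction 8.5.1.1 is named in the submitters' processing notes. The authors deposited a linear intensity of both channels for each array, rounded to 2 decimals from 0.01 upward, and a p-value per probe, which was not used. Background correction, dye normalisation and the error model of the p-value are not given in the text at hand. The series matrix holds the authors' log10 ratios of mouse over pool and served as an alternative.

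Genotype was tested on log2 ratios as deposited, without pseudocount, and diet on the log2 mouse channel after loess and Aquantile, by moderated linear models with a mean per group (limma 3.58.1, R 4.3.3). A probe needed 3 values per group, which left 23344 of 23568 probes (224 left out), and Benjamini-Hochberg adjustment ran over all of them. Tables used Python 3.11.15, pandas 2.3.3 and numpy 2.4.6. The fits were tested on simulated data. The number of arrays limits the precision. Columns of the intensity table name each animal by a mark that no label repeats, so letters A to E only name columns. Alternatives were floors of 0.05 and 0.1, leaving out dim probes, other normalisations, array weights, probes averaged per gene and leaving out each mouse. Leaving out both wild-type mice B was chosen after seeing the data. The members and all gene lists were chosen with earlier results of these data known. The text names every member that passed a comparison, or the 5 with the lowest p where fewer than 5 passed, the brightest members, a fixed set of well-known members, members whose probes disagree and up to 4 genes of each other list that passed. Of these, 1 member and 1 gene of another list are not reported here, though the counts include them. Examples among the cell markers were chosen after their values were seen.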

Additional observations from a re-analysis of the deposited data

Results flagged for a closer look

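Among 121 tests of a group's highest or lowest log2 ratio, over 32 members, 20 stood apart by Dixon's criterion, and chance gives about 1 in 20. Wild-type mouse B on chow accounted for 5 of them, with 1.94 for Ccl2 (its mates -1.19 to -0.58), 2.00 for Ccl3, 2.07 for Ccl4, 2.42 for Cxcl13 and 0.85 for Cxcl5. Of the members that were not dim, Ccl6 stood apart at -0.19 in wild-type mouse C on the atherogenic diet, Cxcl1 at -1.0 in knockout mouse A on chow and Cxcl12 at -0.91 in knockout mouse D on chow.

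The others given here were dim probes. Ccl1 read -0.58 in knockout mouse D on chow, -0.42 in wild-type mouse C and -1.0 in knockout mouse A on the atherogenic diet. Ccl12 probe 2 read 0.42 in wild-type mouse A on chow and -0.58 in knockout mouse A on the atherogenic diet, and Ccl24 read -1.0 in knockout mouse E there. Ccr2 read 0.58 in wild-type mouse B and Ccr8 0.42 in knockout mouse B on the atherogenic diet. Cxcl11 read -0.32 in wild-type mouse C and -0.42 in knockout mouse C on chow. For Ccr2, Ccr8, Cxcl11, Ccl12 probe 2, and Ccl1 in the wild-type mouse, all other mice of the group were at exactly 0.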

How the results depend on the processing

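Counts of members past the threshold moved with the settings as follows, and the cause was not tested. On chow the knockout count of 0 became 1 with dim probes left out (Ccl22) or with only the groups compared (Ccr6). On the atherogenic diet 0 became 1 with array weights. The average of 1 became 2 with loess, Aquantile or array weights and 0 with a floor of 0.1, which ended the call of Ccl22. The wild-type diet count of 8 became 13 with array weights and 16 with the mouse channel as deposited. The knockout diet count of 14 became 7 with a floor of 0.05 and 4 with 0.1, and the average of 24 became 10 and 8, and 14 without dim probes. The Ccr6 difference between diets turned from -0.78 to 0.0275 with a floor of 0.1. Leaving out 1 mouse gave 0 to 3 on chow (3 without knockout mouse A), 0 to 1 on the atherogenic diet, 0 to 0 for their difference, 0 to 4 for the average, 6 to 14 for wild-type diet (6 without chow mouse A, 14 without chow mouse B), 8 to 16 for knockout diet and 19 to 26 for the diet average. Without both wild-type mice B, chosen after the data were seen, the diet counts were 8 in wild type and 17 on average. The median of all probes shifted by 0.17 in wild type, 0.10 in knockout and 0.15 on average with intensities as deposited, and by -0.18, -0.09 and -0.12 with centring. With the replicate numbers of the series matrix as a block, the genotype counts were 0 on chow, 0 on the atherogenic diet, 0 for the difference and 1 for the average, as without the block. Same-numbered mice correlated at -0.427 to -0.033 on chow and -0.058 to 0.103 on the atherogenic diet, which showed no sign of pairing. Differently numbered mice were not compared, so pairing was not excluded. No paired analysis was possible for the diet because the intensity columns carry no replicate numbers. Dim signals, rounded to 2 decimals, limit what can be measured for 32 of the 55 probes.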
